A study of Homo sapiens with 6 samples.

Results

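Cholesterol efflux and its control by the liver X receptors (LXRs) were examined through 8 genes, taken by symbol from the 58735 gene identifiers in the deposited count tables. They were the transporters ABCA1 and ABCG1, the receptors NR1H2 and NR1H3, and the LXR targets MYLIP, SMPDL3A, LPCAT3 and SREBF1. All 8 had enough counts to be among the 14773 genes tested. The genes were chosen by symbol for their known function, with the counts and fold changes of this same B35 comparison already known, so their differences describe these libraries and are no independent test.

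RNA was sequenced from wild-type cells labelled A549, a human lung cancer line (non-small cell), held in serum-containing DMEM. One group of 3 libraries came from cells given B35, named in the series as an inhibitor of the histone demethylase LSD1, at 2 µM for 72 h. The other 3 libraries came from untreated cells at 72 h, and the labels name no solvent control. Whether replicate libraries stem from separate cultures is not stated, and the p-values below therefore cover the scatter of these libraries, which may be technical.

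LXRs are nuclear receptors that bind oxysterols, which are oxidised forms of cholesterol, and act on DNA as partners of the retinoid X receptors. Without ligand they can hold corepressors at their target genes, and with ligand they recruit coactivators. Their best known targets carry cholesterol out of the cell, limit its uptake and direct fatty acid and phospholipid synthesis. In the lung this system is known from alveolar macrophages and from alveolar type 2 cells, which handle surfactant lipid.

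The classical LXR response element is a pair of AGGTCA copies separated by 4 bases. It was searched on both strands, with at most 1 mismatch in each copy, in the 250 bases before each start in the RefSeq promoter table (GRCh38.p14). The table gave 9 windows for 6 of the genes. It held none for ABCG1 and SMPDL3A, which were therefore not searched. ABCA1 is shown because its window was the only 1 of the 9 with a match. MYLIP and SREBF1 are shown as targets whose windows held no match. The only SREBF1 window lies at the outer end of the gene, so any start inside the gene was not covered. Sequence outside the windows was not searched, so an element elsewhere would be missed. Capitals mark the match, sequences run 5′ to 3′ on the strand of the gene, and ABCA1 is printed to the end of its match.
ABCA1, chr9:104928209-104928405, minus strand: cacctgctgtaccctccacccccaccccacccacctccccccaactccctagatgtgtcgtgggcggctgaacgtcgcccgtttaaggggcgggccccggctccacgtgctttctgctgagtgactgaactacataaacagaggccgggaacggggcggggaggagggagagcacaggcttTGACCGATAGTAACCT
MYLIP, chr6:16128836-16129085, plus strand: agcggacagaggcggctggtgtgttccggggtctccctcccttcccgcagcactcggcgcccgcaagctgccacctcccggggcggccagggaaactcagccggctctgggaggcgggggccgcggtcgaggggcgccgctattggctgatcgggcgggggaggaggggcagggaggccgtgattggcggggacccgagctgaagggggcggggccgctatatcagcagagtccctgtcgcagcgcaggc
SREBF1, chr17:17836987-17837236, minus strand: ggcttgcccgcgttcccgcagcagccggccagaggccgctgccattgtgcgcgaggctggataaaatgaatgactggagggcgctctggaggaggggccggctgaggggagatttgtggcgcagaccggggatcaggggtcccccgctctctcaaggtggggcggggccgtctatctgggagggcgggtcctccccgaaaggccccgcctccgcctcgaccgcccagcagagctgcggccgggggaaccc

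The ABCA1 match lies 69 to 54 bases before the RefSeq start and reads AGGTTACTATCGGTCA on the other strand, with 1 mismatch in each copy. Such a match was found in 1.18% of the 35116 windows of the table. GENCODE 29 places the start of ABCA1 82 bases further upstream, so by that annotation the match lies inside the gene. A match to the E-box CACGTG was also present in the ABCA1 window, against 6.34% of all windows. The motif TCACNCCAC, a form of the sterol regulatory element, was found in none of the 9 windows and in 0.883% of all windows. CCAAT was found in 3 of the 9 windows (32.0% of all) and the GC box GGGCGG in 7 of the 9 (42.6% of all). These are matches of letters in a fixed window, not measured binding.

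Gene counts per library ran from 17141478 to 18530670. The transcript of LSD1 itself, KDM1A, was at 198 ± 2.56 CPM (counts scaled to library size with TMM factors) in controls and 184 ± 8.97 CPM with B35 (SD, n = 3 each), and did not pass the test (edgeR adjusted p = 0.432). Of 13 markers of epithelium and of this line, KRT8 and KRT18 were abundant, while KRT19 and the surfactant genes SFTPC and SFTPB stayed under 1 CPM. A549 is known for a deletion that removes CDKN2A, CDKN2B and MTAP. In the libraries labelled A549, CDKN2A had 2041 to 3370 counts per library, CDKN2B 198 to 461 and MTAP 414 to 466, so these values go against the label. CDKN2B and MTAP were looked up after the CDKN2A values were seen, and the identity of the cells was not tested further. Both groups showed these counts, so the comparison below is between cells that carry the same label and the same discrepancy.

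B35-treated cells had more RNA of both cholesterol exporters and of 1 of the 2 LXR genes. ABCA1 was 4.93-fold, ABCG1 2.42-fold and NR1H3 1.36-fold higher, and these 3 of the 8 genes rose. A gene is said to have risen or fallen where its p from edgeR's quasi-likelihood test, adjusted by Benjamini-Hochberg over all genes tested, was under 0.05. Over all genes 8.82% rose and 6.59% fell, 15.4% in either direction. None of the 8 fell, and NR1H2, MYLIP, SMPDL3A, LPCAT3 and SREBF1 did not pass. The median log2 fold change of the 8 was 0.23, beside 0.0067 for all genes tested. In 4 of the 8 every B35 library lay above every control library, which held for 18.8% of all genes (36.3% for separation in either direction). Since the comparison was known when the genes were picked, these counts are given without a reading against the background. In bulk RNA, more transcript per cell and more cells with the transcript cannot be told apart.

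**Figure D1:**
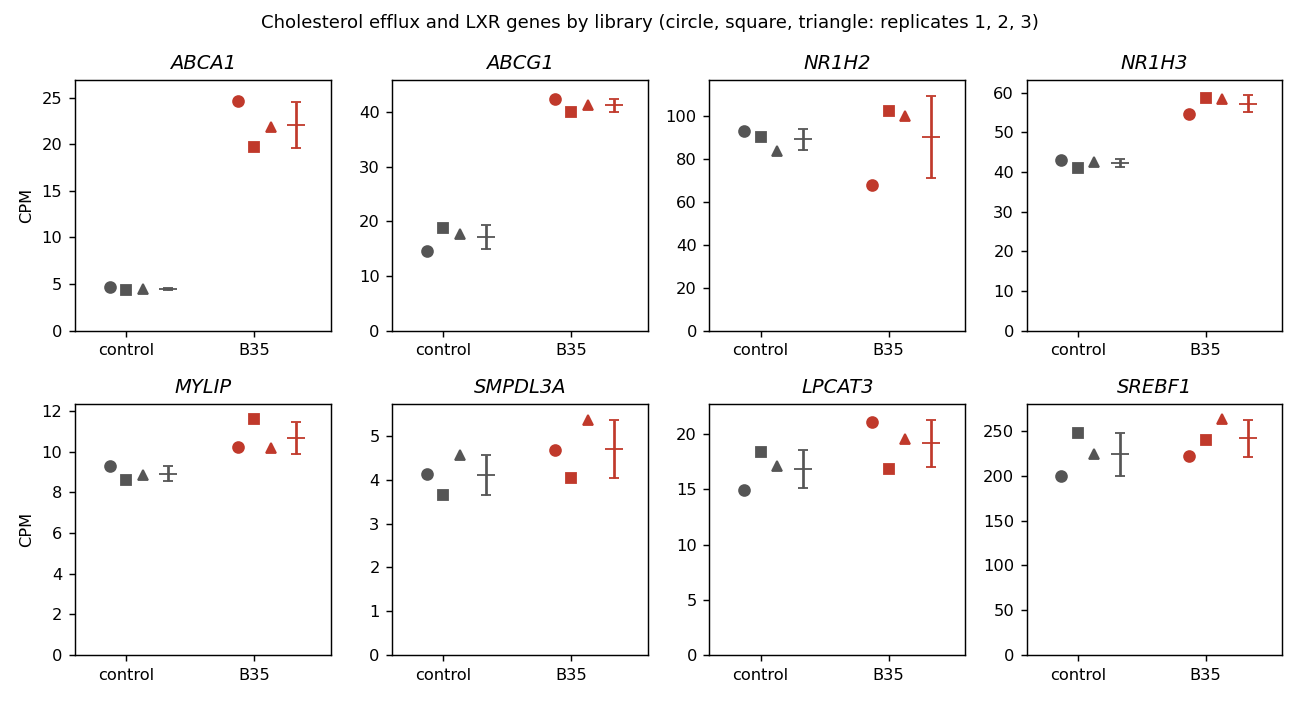
Level of each of the 8 genes in CPM (vertical axes, starting at 0) in 3 control and 3 B35 libraries, with symbols for replicates 1, 2 and 3 and a bar for the mean and SD. ABCA1, ABCG1, NR1H3 and MYLIP show no overlap between the groups, and NR1H2 has 1 low B35 library at 67.8 CPM.

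ABCA1 transfers cholesterol and phospholipid from the cell to lipid-poor apolipoprotein A-I, the first step in forming high-density lipoprotein (ENSG00000165029, chromosome 9, 104781002 to 104928237, minus strand, hg38). Its counts were 83, 78 and 75 in the control libraries and 436, 355 and 415 in the B35 libraries. On the CPM scale the controls were at 4.63, 4.32 and 4.46 and the B35 libraries at 24.6, 19.7 and 21.9. The controls were nearly alike, and the lowest B35 library lay far above all of them. The difference on the log2 scale was 2.30 ± 0.14 (SE; edgeR adjusted p = 1.85e-05). Only 50 of the genes tested had a larger one. Among genes tested, 37.7% had a lower mean CPM, so ABCA1 was a gene of below-median abundance.

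ABCG1 moves cholesterol to lipoprotein particles that already hold lipid, a step that follows ABCA1 (ENSG00000160179, chromosome 21, 42199689 to 42297244, plus strand). The control libraries held 263, 341 and 298 counts, or 14.7, 18.9 and 17.7 CPM. The B35 libraries held 750, 723 and 784 counts, or 42.4, 40.1 and 41.3 CPM. The spread was wider in the controls (SD 2.18 CPM) than with B35 (SD 1.13 CPM), and the groups were far apart. This is a log2 fold change of 1.27 ± 0.12 (SE; edgeR adjusted p = 0.000151), and 293 genes showed a larger one. Neither exporter shares annotated exons with another gene.

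NR1H3 encodes LXR alpha, the form that can act on its own gene in human macrophages (ENSG00000025434, chromosome 11, 47248300 to 47269032, plus strand). It was at 43.0, 41.1 and 42.6 CPM in controls and 54.8, 58.6 and 58.3 CPM with B35. The lowest B35 library was above the highest control, with a log2 difference of 0.44 ± 0.091 (SE; edgeR adjusted p = 0.00963). This call was lost without control replicate 2 (adjusted p = 0.0512) or control replicate 3 (0.0622), at log2 fold changes of 0.42 and 0.44. NR1H3 shares 189 exon bases, 4.17% of its exons, with ACP2 on the opposite strand. ACP2, a lysosomal phosphatase, was at 62.1 ± 4.32 CPM in controls and 68.1 ± 5.25 CPM with B35 and did not pass (edgeR adjusted p = 0.397).

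NR1H2 encodes LXR beta, the form found in most tissues (ENSG00000131408, chromosome 19, 50329653 to 50382982, plus strand). The controls were at 93.0, 90.3 and 83.6 CPM and the B35 libraries at 67.8, 102 and 99.8 CPM. B35 replicate 1 was the lowest of all 6 libraries and the other B35 libraries were the highest. The fitted log2 difference was 0.016 ± 0.14 (SE; edgeR adjusted p = 0.957). Without B35 replicate 1 it was 0.18 ± 0.081 (adjusted p = 0.133). Per kilobase of exon, NR1H3 made up 27.7%, 27.4% and 29.7% of the sum of both LXR transcripts in controls. With B35 its share was 40.1%, 32.2% and 32.6%, and the 40.1% belongs to the library in which NR1H2 was low.

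None of the remaining LXR targets passed, with fold changes from 1.08 for SREBF1 to 1.20 for MYLIP. MYLIP encodes IDOL, a ubiquitin ligase that sends lipoprotein receptors to the lysosome (ENSG00000007944, chromosome 6, 16129125 to 16148248, plus strand). It was at 9.31, 8.58 and 8.86 CPM in controls and 10.2, 11.6 and 10.2 CPM with B35. The groups did not overlap, but the difference was small, with a log2 fold change of 0.26 ± 0.14 (SE, edgeR adjusted p = 0.225).

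SREBF1 encodes SREBP-1, which drives fatty acid synthesis (ENSG00000072310, chromosome 17, 17810399 to 17837002, minus strand). It was the most abundant of the 8 genes, at 200, 248 and 224 CPM in controls and 222, 240 and 264 CPM with B35. The groups overlapped, with a log2 difference of 0.11 ± 0.11 (SE; edgeR adjusted p = 0.527). The count covers the whole gene, so transcripts from different starts cannot be told apart. It shares 6.92% of its exon bases with RAI1, which was at 85.0 ± 3.88 and 85.4 ± 12.8 CPM in the 2 groups.

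LPCAT3 places polyunsaturated fatty acids into membrane phosphatidylcholine (ENSG00000111684, chromosome 12, 6976186 to 7018510, minus strand). Its values were 14.997, 18.4 and 17.1 CPM in controls and 21.1, 16.9 and 19.6 CPM with B35, and the groups overlapped (log2 0.19 ± 0.13, edgeR adjusted p = 0.370). Of its annotated exon bases, 65.6% are also exon of EMG1 on the opposite strand, and the counting is not stated to use strand. The LPCAT3 value is therefore uncertain. EMG1, a ribosome biogenesis factor, was at 38.9 ± 4.24 CPM in controls and 35.2 ± 9.34 CPM with B35.

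SMPDL3A is a secreted phosphodiesterase related to acid sphingomyelinase (ENSG00000172594, chromosome 6, 122789049 to 122809720, plus strand). It had the fewest counts of the 8 genes, 66 to 77 per control library and 73 to 102 per B35 library. On the CPM scale this was 4.13, 3.65 and 4.58 in controls and 4.69, 4.05 and 5.38 with B35. The groups overlapped, and the SE of its log2 fold change (0.19 ± 0.20, edgeR adjusted p = 0.549) was the largest of the 8, so a modest difference was not detectable here.

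**Figure D2:**
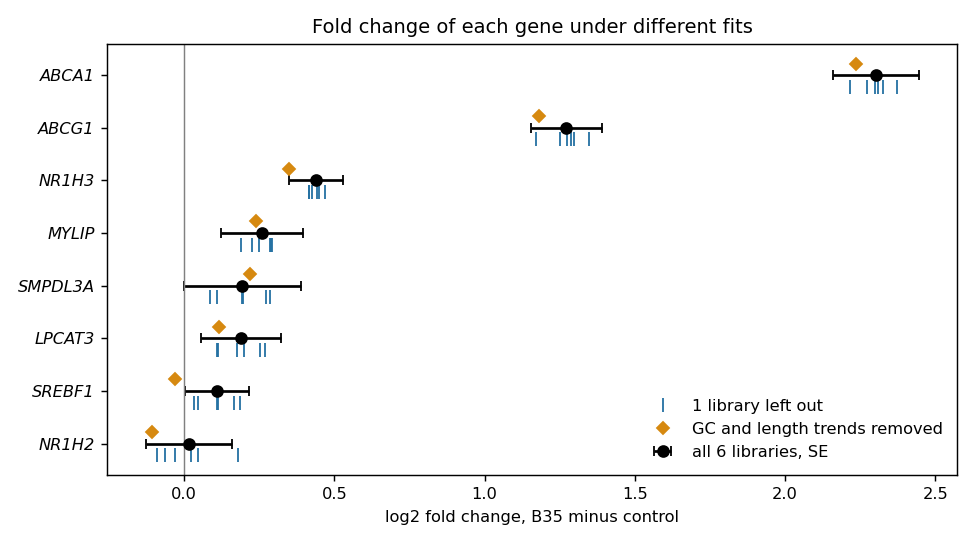
Log2 fold change (B35 minus control, horizontal axis) of each gene, with the SE of the fit on all 6 libraries, the values with 1 library left out, and the values after removal of GC and length trends. ABCA1 stays between 2.21 and 2.37 and ABCG1 between 1.17 and 1.35 when any library is left out, while NR1H2 crosses 0.

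The authors' FPKM values rescale the counts by gene length and library size, so they check the scaling alone. They gave the same picture as the counts. The ratio of mean FPKM, B35 over control, was 4.89 for ABCA1, 2.39 for ABCG1, 1.34 for NR1H3, 1.18 for MYLIP, 1.13 for SMPDL3A, 1.13 for LPCAT3, 1.07 for SREBF1 and 1.00 for NR1H2. Within the B35 group, replicate 1 stood above the mean of the other libraries by 0.24 on the log2 scale for ABCA1 and below it by 0.57 for NR1H2. The other 6 genes departed by no more than 0.21 in either direction.

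Levels can be compared between genes only per length, here as CPM per kilobase of annotated exon. In controls SREBF1 was the highest at 27.9 ± 3.04, followed by NR1H2 at 23.7 ± 1.28, and these neighbours did not differ by more than the sum of their SDs. NR1H3 followed at 9.32 ± 0.224 and LPCAT3 at 3.56 ± 0.362. MYLIP at 2.94 ± 0.121 and ABCG1 at 2.79 ± 0.356 were not separated beyond their spread. SMPDL3A was at 1.75 ± 0.197 and ABCA1 was the lowest at 0.394 ± 0.0136 (SD, n = 3 each). With B35 the order changed at the exporters. ABCG1, at 6.74 ± 0.185, moved above LPCAT3 (4.06 ± 0.456) and MYLIP (3.52 ± 0.266), and ABCA1, at 1.94 ± 0.218, reached the level of SMPDL3A (2.00 ± 0.282). The place of LPCAT3 in this order is uncertain in both groups, since its level is divided by its full exon length, 65.6% of which is shared with EMG1. Even with B35, ABCA1 was thus at a low level per length beside SREBF1 (30.1 ± 2.60) and the receptor genes NR1H2 (24.0 ± 5.11) and NR1H3 (12.6 ± 0.473).

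**Figure D3:**
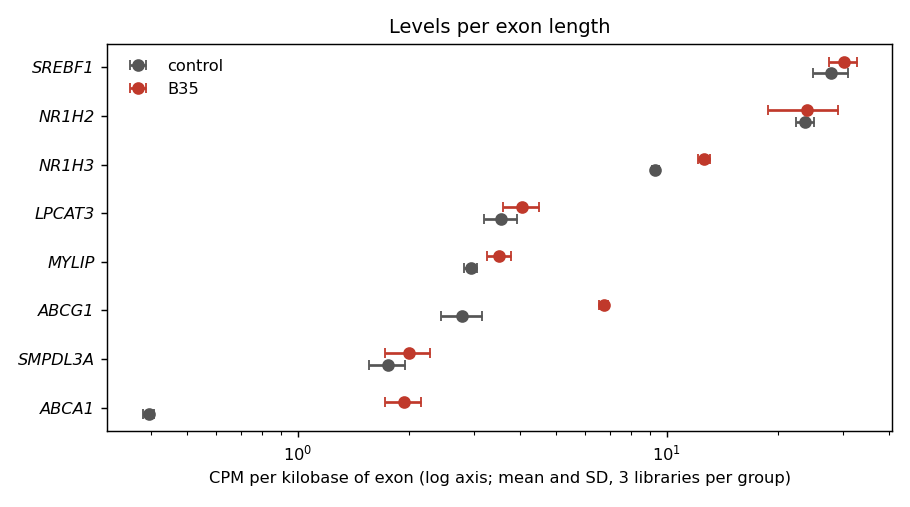
Level per exon length of each gene (CPM per kilobase, log axis), mean and SD over 3 libraries per group, ordered by the control value. ABCA1 is lowest in controls at 0.394 and reaches 1.94 with B35, while ABCG1 moves from 2.79 to 6.74.

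The other genes of the pathway were taken from lists set by known function. Over all genes tested 8.82% rose and 6.59% fell, and these shares stand beside the counts of each list. Among 14 tested partners and coregulators of LXR, 2 rose and none fell, with a median log2 fold change of 0.043. NCOA3, a coactivator of nuclear receptors, was at 68.1 ± 3.65 CPM in controls and rose to 97.3 ± 6.53 CPM (log2 0.52 ± 0.094; adjusted p = 0.00534 by edgeR). PPARA, a receptor for fatty acids, was at 31.1 ± 1.72 CPM and rose to 47.2 ± 7.23 CPM (log2 0.60 ± 0.12; adjusted p = 0.00899 by edgeR). RXRA and RXRB, the dimer partners of LXR, were at 193 ± 17.5 and 69.4 ± 5.12 CPM in controls and 204 ± 36.4 and 74.8 ± 13.3 CPM with B35. The calls of NCOA3 and PPARA were kept with every library left out in turn. NCOA3 shares 1.14% of its exons with SULF2.

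Among 22 other known LXR targets, 12 had enough counts to test, and 3 rose and none fell (median log2 fold change 0.16). EEPD1, a membrane-associated protein that promotes efflux through ABCA1, was at 13.4, 14.7 and 12.7 CPM in controls and 28.9, 27.4 and 26.7 CPM with B35. The groups were well apart (log2 1.03 ± 0.11, edgeR adjusted p = 0.000460), and the call was kept with every library left out. RNF145, a sterol-responsive ubiquitin ligase, rose by 1.23-fold (edgeR adjusted p = 0.0368). RNF145 kept its call, among the left-out libraries, only without B35 replicate 1 (adjusted p between 0.0738 and 0.154 in the others). The lipogenic targets SCD, FASN and ACACA, which are also driven by SREBP-1, were named after their values were seen and did not pass. SCD was at 1638 ± 129 and 1629 ± 14.4 CPM, FASN at 539 ± 32.0 and 460 ± 58.6 CPM, and ACACA at 175 ± 17.3 and 148 ± 4.53 CPM in control and B35 libraries. After correction for GC content and gene length, 3 of the 12 rose and 4 fell. FASN (log2 −0.39, edgeR adjusted p = 0.00325) and ACACA (log2 −0.33, edgeR adjusted p = 0.00724) were among those that fell. Only 1 of the 12 rose when control replicate 2 or 3 was omitted, and likewise for B35 replicate 2. Omitting control replicate 1 left 2 risers and 1 gene that fell, and omitting B35 replicate 3 left 2 risers. The apolipoprotein gene APOE, an LXR target in macrophages, had 4 counts over the controls and 12 over the B35 libraries and was not tested. The liver and gut targets CYP7A1 and ABCG5 had no more than 1 count in all 6 libraries. APOE, CYP7A1 and ABCG5 were also chosen after their values were seen.

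Of 8 tested genes that make or clear oxysterols and related sterols, 2 rose and 1 fell. With the replicate block, or with no filter on low counts, 2 rose and 3 fell, and after correction for GC content and length 1 rose and 4 fell. CYP11A1, which cleaves the side chain of cholesterol at the start of steroid hormone synthesis, was at 3.51, 3.49 and 2.50 CPM in controls and at a mean of 8.84 ± 1.43 CPM with B35 (log2 1.48 ± 0.20, edgeR adjusted p = 0.00133). It shares 21.2% of its exons with AC090826.1 and 7.73% with PPIAP46, both on the opposite strand. HSD3B7, an enzyme of bile acid synthesis that shares 64.6% of its exons with AC135048.4, rose by 1.35-fold (adjusted p = 0.0425). HSD17B10, a mitochondrial dehydrogenase, was 1.32-fold lower (adjusted p = 0.0329). The rises in this list numbered 1 rather than 2 when any library but B35 replicate 3 was left out. HSD3B7 lost its call after that correction (adjusted p = 0.123). It kept the call, among left-out libraries, only without B35 replicate 3, and HSD17B10 kept its call only without B35 replicate 1 or 2. Of the enzymes that make oxysterol ligands of LXR, CH25H and CYP46A1 had no count in any library, and CYP27A1 had 7 counts over the controls and 15 over the B35 libraries. These 3 were named after their values were seen, and none was tested.

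Of 15 tested genes for cholesterol acceptors, trafficking and storage, 3 rose and none fell (median log2 fold change 0.25). GRAMD1A, which carries plasma membrane cholesterol to the endoplasmic reticulum, rose by 1.32-fold, the lipid transfer protein OSBPL5 by 1.37-fold and the lysosomal lipase LIPA by 1.24-fold (edgeR adjusted p = 0.0126, 0.0286 and 0.0364). LIPA shares 1.32% of its exons with IFIT2. GRAMD1A lost its call without control replicate 2 or 3, and after correction for GC content and length (edgeR adjusted p = 0.0744). Among left-out libraries, OSBPL5 kept its call only without control replicate 2 or B35 replicate 1, and LIPA only without B35 replicate 1. The counts of this list were not steady either. With control replicate 3 left out no gene of the list rose, and with control replicate 1, control replicate 2 or B35 replicate 2 left out 1 rose. Without B35 replicate 1, 5 rose and 2 fell, and after correction for GC content and length 4 rose and 3 fell.

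Cholesterol synthesis and SREBP control, the arm by which cells make sterol, gave 10 genes that fell and 1 that rose of 21 tested. Over all genes 6.59% fell and 8.82% rose. The other 10 did not pass, and the median log2 fold change of the list was −0.47, beside 0.0067 for all genes. HMGCS1 was at 385 ± 9.30 CPM in controls and 171 ± 18.1 CPM with B35 (log2 −1.17 ± 0.097; adjusted p = 8.58e-05 by edgeR). IDI1 was 2.01-fold, ACAT2 1.73-fold and FDFT1 1.58-fold lower (edgeR adjusted p = 0.000343, 0.000430 and 0.000937). HMGCS1, IDI1, ACAT2 and FDFT1 each catalyse a step between acetyl-CoA and squalene. ACAT2 shares 33.9% of its exon bases with SOD2-OT1, 26.5% with SOD2 and 9.23% with TCP1, all on the opposite strand. HMGCS1 shares 14.95% with AC114947.2, IDI1 14.8% with IDI2-AS1 and FDFT1 4.17% with AC069185.1, also on the opposite strand. The gene that rose was INSIG2, which holds SREBP in the endoplasmic reticulum, from 35.7 ± 3.64 to 58.7 ± 3.60 CPM, and it was named after its values were seen. The falls numbered 10 or 11 with any 1 library left out. SREBF2, the gene of the other SREBP, was at 280 ± 17.03 and 273 ± 9.41 CPM and did not pass.

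LRP8, a receptor that MYLIP marks for degradation, was at 105 ± 6.86 CPM in controls and 85.3 ± 10.4 CPM with B35 and did not pass (edgeR adjusted p = 0.0838). After correction for GC content and length it fell (adjusted p = 0.00718). Transcript levels do not measure the receptor protein on which MYLIP acts.

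Relatives of the exporters were measured beside them. Of 8 tested ABCA and ABCG transporters other than ABCA1 and ABCG1, 4 rose and 1 fell. Over all genes 8.82% rose and 6.59% fell. ABCG2, a drug exporter, rose by 1.37-fold, ABCA5 by 1.43-fold and the skin lipid transporter ABCA12 by 1.61-fold (edgeR adjusted p = 0.00756, 0.0282 and 0.0283). ABCA4, named after its values were seen, rose from 2.51 ± 0.513 to 4.73 ± 1.39 CPM (adjusted p = 0.0388). ABCA13 was 1.98-fold lower (adjusted p = 0.000952). The calls of ABCG2 and ABCA13 were kept with every library left out. The rises numbered 2, 1 and 1 without control replicates 1, 2 and 3, and 2 without B35 replicate 2. Of 11 relatives of LPCAT3 and SMPDL3A, 1 rose, the phosphatidylinositol acyltransferase MBOAT7, by 1.27-fold (adjusted p = 0.0401). It kept its call, among left-out libraries, only without B35 replicate 1.

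**Figure D4:**
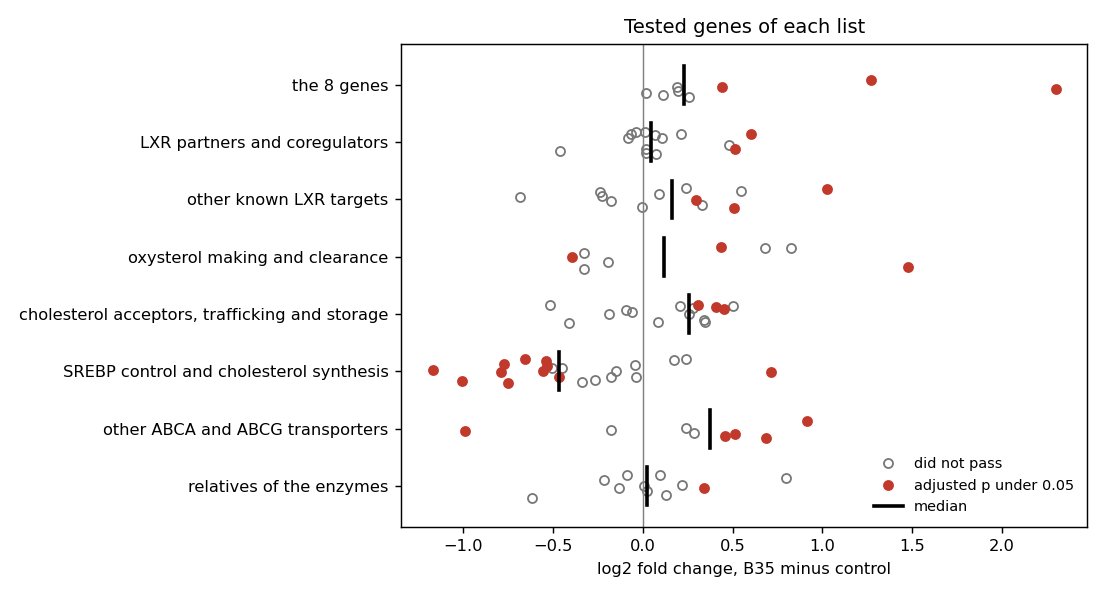
Log2 fold change (B35 minus control, horizontal axis) of the tested genes in 7 lists and of the 8 genes, with filled points for adjusted p under 0.05, open points for the rest and a bar at the median. ABCA1 and ABCG1 lie furthest to the right among the 8 genes, and the synthesis list has its median at −0.47.

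ABCA1 and ABCG1 were compared with 10745 other genes of at least 5 CPM on average, by Pearson's r of log2 CPM over the 6 libraries. Genes whose symbols begin with LINC, or hold lower-case letters, dots or several hyphens, were left out. For ABCA1 the closest were CYP1B1, DYRK3, ANTXR2, IGFBP3 and CXCR4, with r from 0.999 to 0.998. For ABCG1 they were RNF145, TMEM154, SMAD3, GGT5 and NOP14-AS1, with r from 0.998 to 0.996. An r above 0.9 was reached by 7.62% of the genes for ABCA1 and 7.71% for ABCG1. The 6 libraries form 2 groups, so these values reflect the difference between groups as well as the spread within them. RNF145 also stands in the list of LXR targets, and its level moved from 139 ± 5.37 to 170 ± 1.51 CPM.

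Most markers of other cell types were low. Of 12 macrophage markers, 10 stayed under 1 CPM in every library and 5 were at 0 throughout, namely CD163, LYZ, AIF1, FCGR3A and CD68. CD68 shares 81.7% of its exons with AC016876.2, so its 0 says little. PTPRC, the pan-leukocyte marker, had no count in controls and 1 with B35. The summed macrophage markers were at 1.90 to 2.21 CPM in controls and 2.66 to 4.55 CPM with B35, most of it MARCO and ITGAM. Of 10 fibroblast and endothelial markers, 6 stayed under 1 CPM and KDR was at 0. The sum was 32.9 to 36.4 CPM in controls and 28.6 to 31.2 CPM with B35, most of it from the markers above 1 CPM. Of the 4 tested, COL1A1 and VWF among them, none passed, and after correction for GC content and length 2 fell. This list was therefore not absent from the cells. The 13 epithelial and line markers summed to 2823 to 2948 CPM in controls and 1899 to 2364 CPM with B35, where 2 fell, KRT8 among them, and EPCAM and AKR1C1 rose. The part of these shifts in the differences of the 8 genes was not tested.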

How the data were processed

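RNA was taken with TRIzol and made into libraries with a NEBNext Ultra kit, per the labels' protocols. The submitters' processing notes name HISAT2 2.0.5, featureCounts 1.5.0-p3 and the hg38 build. Each library's deposited table gives raw counts by gene and the FPKM computed by the authors. Whether counting used strand is not stated. Symbols, positions and exon overlaps came from GENCODE 29, which held all 58735 identifiers, and promoter windows from RefSeq.

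Counts were filtered with filterByExpr (minimum count 10, minimum total 15), scaled by TMM (factors 0.979 to 1.03) and tested with edgeR 4.0.16 in R 4.3.3 (quasi-likelihood, two-sided, Benjamini-Hochberg over 14773 genes). SE is the log2 fold change divided by the square root of F. The FPKM values deposited by the authors served as a check of the scaling alone. Alternatives were other scalings and filters, each library left out, the replicate number as a term, DESeq2 1.42.0, and removal of GC and length trends.

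The genes and lists were chosen with earlier results of these data known. Named were all 8 genes, up to 4 passing genes per list by adjusted p (or the 2 highest in CPM where none passed), the 5 genes most like each exporter, exon-sharing genes and KDM1A. A planned comparison of protein sequences was not made. Some genes that this rule names are not reported here.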

Additional observations from a re-analysis of the deposited data

How the results depend on the processing

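Over the whole table the number of genes that changed was 2276. It was 3342 without B35 replicate 1, and 881 to 1646 with any other 1 library left out. With the GC and length trends removed it was 4141, of which 1659 rose and 2482 fell, against 1303 and 973 in the fit without that correction. Of 91 tested pathway genes 28 changed, 16 up and 12 down, beside 15.4% of all genes. That count was 17 to 31 with 1 library left out, and 45 with those trends removed, 16 up and 29 down. The cause was not tested. The count among the 8 genes was 3 in every alternative except without control replicate 2 or 3, where it was 2. NR1H2 changed sign, from −0.092 to 0.18 with 1 library left out, −0.0050 with the replicate block and −0.11 with the trends removed, and SREBF1 was at −0.031 there, none of them past the threshold. Same-numbered libraries deviated together with correlations of 0.262, 0.0884 and −0.119, beside −0.365 to 0.386 for unlike numbers. Deviations from the mean of only 3 libraries are tied together, so these values cannot decide whether the numbers pair the libraries. With the replicate block 2855 genes changed, with 36 among the pathway genes and 3 among the 8. ABCA1 and ABCG1 kept direction and call in every alternative run. Depth limits SMPDL3A, with 66 to 102 counts per library, and the LXR targets too low to test.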
